A study of Mus musculus with 6 samples.

Results

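The genes described here are 8 genes of a single interval of mouse chromosome 9 whose levels separated *Adar1* E861A brains from *Adar1* wild-type brains, some in each direction: *Cgnl1*, *Mns1*, *Col12a1*, *4930429F24Rik*, *Filip1*, *Cyb5r4*, *Cep162* and *Trim43b*. They were chosen from the 37310 genes of the count table because their CPM (counts scaled to the library total) differed between these same 6 libraries, so their group differences are given as a description and without a test. Of the 8 genes, 3 were higher and 5 were lower in the E861A group. For testing, all 3 libraries of one genotype had to reach a CPM of 2, and 13649 genes met this filter. All 8 members met it, but *4930429F24Rik* and *Trim43b* did so only through the wild-type libraries, in which they were higher. As background, 0.506% of the 13649 tested genes had an adjusted p-value under 0.05 in edgeR's quasi-likelihood test (called genes in what follows), with 0.41% called higher and 0.0952% called lower in E861A, and in 13.8% the CPM of the groups did not overlap. The choice of members rested on group differences in these same libraries, which these properties also measure.

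RNA was sequenced from whole brain of male mice on a C57BL/6 background at 12 weeks of age. The E861A group was homozygous for the *Adar1* E861A point mutation, which leaves ADAR1 unable to edit RNA, and *Ifih1*-/-. The wild-type group was *Adar1*+/+ and likewise *Ifih1*-/-, so both groups lacked the double-stranded RNA sensor MDA5. Each group had 3 independent animals, with 26853488 to 38076753 counts per library, and how many generations the mutant line had been backcrossed and whether the groups were littermates was not given in the sources used here. *Adar*, the symbol of *Adar1* in the table, was at 161 ± 8.98 CPM in E861A and 150 ± 29.9 CPM in wild type (SD, n = 3), which does not check a point mutation, and *Ifih1* held 38 to 56 counts per library in both groups.

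Neuronal markers were present at a summed 6038 to 6430 CPM in all 6 libraries, with each of the 12 listed genes detected. Pituitary hormone transcripts summed to 444 CPM in E861A replicate 1 against 1.33 to 3.58 CPM in the other 5 libraries. Without this library the log2 fold changes of the members other than *Trim43b* ran from -1.18 for *4930429F24Rik* to 0.64 for *Cyb5r4*. Each of these 7 genes kept its direction, which follows from the choice of members whose groups separate in these libraries. The sum of astrocyte markers did not overlap between groups (5242 to 5475 CPM in E861A, 4601 to 4853 CPM in wild type), which lay mostly in *Slc1a2* (4165 against 3630 CPM), while the median log2 fold change of the 8 markers was 0.01. The neuronal sums did not overlap either (6038 to 6326 against 6359 to 6430 CPM), and the part of either list in the members' levels was not tested. In bulk tissue, fewer cells of a type and less RNA per cell cannot be told apart.

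The known roles of the members differ. Cingulin-like 1, encoded by *Cgnl1*, sits at cell junctions and anchors them to the actin and microtubule cytoskeleton in epithelial and endothelial cells. *Mns1* and *Cep162* encode proteins of the ciliary axoneme and of the centriole, from which cilia grow. In the brain, motile cilia are carried by the ependymal cells that line the ventricles, and most neurons and astrocytes bear a single primary cilium. *Col12a1* encodes a collagen of the FACIT class, whose members attach to the surface of collagen fibrils rather than forming fibrils themselves. *Filip1* encodes a filamin-interacting protein known for controlling filamin A in migrating cortical cells. *Cyb5r4* encodes a cytochrome b5 reductase, a flavoprotein that passes electrons from NADH to haem. *Trim43b* belongs to a rodent group of TRIM genes that lie as near-identical copies on chromosome 9, and *4930429F24Rik* is annotated as a long intergenic non-coding RNA of no known function.

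The sequences that bear on how the counts of these genes can be read are given first. Exons of *Trim43b* share long stretches with its copies. The following lines give positions 99 to 188 of the coding sequence, counted from the first base of the start codon, for *Trim43b* and for 2 other *Trim43* genes of chromosome 9. Of the gap-free stretches of this length, it is the first with the most positions at which any copy differs from *Trim43b*, counted over both copies together. It was not chosen for its differences from each copy alone. The 8 positions at which the 3 genes are not all alike are in capitals. The count table and the GENCODE vM1 annotation exchange the symbols *Trim43a* and *Trim43c*, so these genes are named by identifier.
Trim43b (ENSMUSG00000079162): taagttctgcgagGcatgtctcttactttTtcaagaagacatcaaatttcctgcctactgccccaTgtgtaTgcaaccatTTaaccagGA
ENSMUSG00000067399: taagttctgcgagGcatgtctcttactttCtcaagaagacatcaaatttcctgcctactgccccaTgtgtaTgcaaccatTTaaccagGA
ENSMUSG00000090693: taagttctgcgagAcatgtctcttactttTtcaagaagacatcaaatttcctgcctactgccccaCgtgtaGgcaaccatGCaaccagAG
In this stretch *Trim43b* differed from ENSMUSG00000067399 at 1 position and from ENSMUSG00000090693 at 7. Over the 1338 aligned coding bases, *Trim43b* was 98.4% identical to ENSMUSG00000067399 (21 differences) and 97.8% identical to ENSMUSG00000090693 (29 differences). Of 1264 coding windows of 75 bases, the length of a read, 370 and 386 were identical in those copies.

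The annotated start of *4930429F24Rik* lies beside that of *Tmem30a*, a gene of the opposite strand that encodes a subunit of phospholipid flippases. The 133 bases between both starts (NCBIM37, chr9:79641315-79641447, plus strand), of which 65.4% are G or C and which hold 18 CG dinucleotides, are shown because they lie between the starts of a member and of a neighbour that was not called.
4930429F24Rik-Tmem30a: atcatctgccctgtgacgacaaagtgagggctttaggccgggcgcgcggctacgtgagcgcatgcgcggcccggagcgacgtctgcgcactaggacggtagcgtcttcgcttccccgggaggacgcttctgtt

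The 250 bases before the annotated start of *Filip1* (NCBIM37, chr9:79825612-79825861, minus strand) and of *Cyb5r4* (NCBIM37, chr9:86916599-86916848, plus strand) are given because *Cyb5r4* had the largest log2 fold change among the higher members and *Filip1* the largest fall in value among the protein-coding members after *Trim43b*. GC boxes are in capitals.
Filip1: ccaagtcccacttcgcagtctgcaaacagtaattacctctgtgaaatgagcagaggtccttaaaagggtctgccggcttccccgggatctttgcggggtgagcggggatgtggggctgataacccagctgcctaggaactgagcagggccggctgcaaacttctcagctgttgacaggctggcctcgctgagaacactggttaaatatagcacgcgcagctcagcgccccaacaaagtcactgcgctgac
Cyb5r4: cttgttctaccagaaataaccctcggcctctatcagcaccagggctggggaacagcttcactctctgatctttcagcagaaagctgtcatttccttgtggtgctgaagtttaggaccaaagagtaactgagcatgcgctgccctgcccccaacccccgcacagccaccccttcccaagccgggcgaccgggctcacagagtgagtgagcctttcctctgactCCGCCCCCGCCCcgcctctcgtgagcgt
Windows of this length were searched on both strands for the GC box (GGGCGG) and the CCAAT box (CCAAT), which do not overlap each other in spelling. The GC box was present before 4 members (*Cgnl1*, *Mns1*, *Col12a1* and *Cyb5r4*) and before 53.7% of tested genes. The CCAAT box was present before *Mns1* and before 35.1% of tested genes. The window was 70.8% G or C in *Cgnl1*, 56.8% in *Filip1* and 59.2% in *Cyb5r4*, with 58.8% as the median of tested genes.

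*Cgnl1* (ENSMUSG00000032232; NCBIM37 chromosome 9, 71474316 to 71619409, minus strand, 20 exon blocks) was the first member along the chromosome and was lower in E861A. Its level was 29.6, 31.6 and 31.0 CPM in E861A replicates 1 to 3 and 48.8, 44.2 and 43.1 CPM in wild type. The lowest wild-type library was 1.36 times the highest E861A library. Means were 30.7 ± 1.06 and 45.3 ± 3.01 CPM (SD, n = 3), and the quasi-likelihood fit gave a log2 fold change of -0.56 ± 0.06 (SE). Markers of endothelium and mural cells moved with this gene: their summed level was 220, 264 and 238 CPM in E861A and 331, 275 and 290 CPM in wild type, and 0 of the 10 tested markers was higher in E861A. Their median log2 fold change was -0.32, with 7 of 10 at an unadjusted p under 0.05 and 0 called by the quasi-likelihood test, against 4 by the likelihood ratio test, 2 by DESeq2, 0 by limma-voom and 2 with the replicate number as a block. Over all tested genes, 9.01% had an unadjusted p under 0.05, the share to set beside such counts here and in the lists below. None of the 11 listed markers was at 0 in all libraries, and their part in the level of *Cgnl1* was not tested. Choroid plexus markers summed to 528 to 739 CPM in E861A and 818 to 834 CPM in wild type, a difference that lay mostly in *Ttr* (248 against 355 CPM) and *Enpp2* (352 against 412 CPM). Of these 9 markers 3 were higher in E861A, the median log2 fold change was -0.10, 3 had an unadjusted p under 0.05 and 0 were called by the quasi-likelihood test, DESeq2 or limma-voom, against 1 by the likelihood ratio test and 1 with the replicate block.

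Other tight junction genes were measured beside *Cgnl1*. Of 20 tested genes of that list, 0 were called by the quasi-likelihood test, the likelihood ratio test, DESeq2 or limma-voom, 2 had an unadjusted p under 0.05, and 6 were higher in E861A. The median log2 fold change was -0.01, against -0.00 over all tested genes. The lowest values were those of *Cldn5* at -0.39 ± 0.15 (adjusted p 0.478) and *Esam* at -0.35 ± 0.11 (adjusted p 0.355), both of which are expressed by endothelium. Cingulin itself, *Cgn*, was at 7.42 ± 0.44 CPM in E861A and 7.44 ± 0.44 CPM in wild type (SD, n = 3).

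*Mns1* (ENSMUSG00000032221; 72286336 to 72306381, plus strand, 10 exon blocks) lies 667 kb beyond *Cgnl1*. It held 71, 102 and 92 counts in E861A and 191, 185 and 192 counts in wild type. In CPM these were 2.46, 2.81 and 3.43 against 5.28, 4.86 and 5.38, so all wild-type libraries lay above all E861A libraries. The mean was 2.90 ± 0.49 CPM in E861A and 5.17 ± 0.28 CPM in wild type (SD, n = 3), and the fit gave a log2 difference of -0.84 ± 0.14. Among 15 tested genes of motile cilia and ependyma, 12 were higher in E861A and the median log2 fold change was 0.11, opposite in sign to *Mns1*. None of the 15 was called by the quasi-likelihood test, the likelihood ratio test, DESeq2 or limma-voom, and 2 had an unadjusted p under 0.05. Their summed level was 140 to 152 CPM in E861A and 139 to 142 CPM in wild type.

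*Col12a1* (ENSMUSG00000032332; 79446798 to 79566638, minus strand, 66 exon blocks) was higher in E861A. Its level was 19.6, 19.2 and 21.9 CPM in E861A and 16.5, 14.2 and 15.3 CPM in wild type. The groups did not overlap, and E861A replicate 3 was the highest library. Means were 20.2 ± 1.43 and 15.3 ± 1.16 CPM (SD, n = 3). The fitted log2 fold change was 0.40 ± 0.08. Within libraries of the same replicate number, the log2 ratio of E861A to wild type was 0.25, 0.44 and 0.52. When each library was left out in turn, its log2 fold change ran from 0.34 to 0.45.

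Collagen XII attaches to fibrils built of collagens I, III and V. In the list of FACIT collagens and their partners, 2 of 16 tested genes were called, both higher, against 0.506% called and 0.41% called higher over all tested genes. *Col1a2* rose by a log2 fold change of 0.42 ± 0.08 (adjusted p 0.0199) and *Col3a1* by 0.57 ± 0.11 (adjusted p 0.0316). *Col1a1* had a value of 0.76 ± 0.17 and missed the threshold (adjusted p 0.0804), although the likelihood ratio test called it, and *Col5a1* was at -0.13 ± 0.13 (adjusted p 0.792). The 16 genes had a median log2 fold change of 0.16, and 13 were higher in E861A. The count of called genes over all the lists, 2 of 101, fell to 0 without E861A replicate 3 and to 0 without wild-type replicate 3, and was 1 without wild-type replicate 1. Markers of meningeal fibroblasts, which make such collagens in the brain, summed to 385 to 442 CPM in E861A and 413 to 487 CPM in wild type, overlapping ranges in which *Ptgds* had the largest share (320 against 362 CPM). Of the 11 tested markers 6 were higher in E861A and 3 had an unadjusted p under 0.05, with 0.08 as the median log2 fold change, and they included *Aldh1a2* at 0.32 ± 0.12 and *Lepr* at 0.28 ± 0.12. None of the 11 was called by the quasi-likelihood test, the likelihood ratio test, DESeq2 or limma-voom, and their part in the collagen levels was not tested.

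*4930429F24Rik* (ENSMUSG00000086918; 79641448 to 79651042, plus strand, 3 exon blocks) starts 74.8 kb beyond *Col12a1* and was lower in E861A. It held 34, 41 and 41 counts in E861A and 113, 102 and 114 counts in wild type. The levels were 1.18, 1.13 and 1.53 CPM against 3.12, 2.68 and 3.19 CPM, without overlap. The mean was 2.35-fold lower in E861A, a log2 fold change of -1.24 ± 0.16. *Tmem30a*, whose start lies across the 133 bases printed above, had a log2 fold change of 0.10 ± 0.05 and was not called (adjusted p 0.589), at 415 CPM in E861A.

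*Filip1* (ENSMUSG00000034898; 79662858 to 79825611, minus strand, 8 exon blocks) is the next tested gene, 11.8 kb away, and was lower in E861A as well. Its level was 12.7, 13.2 and 13.7 CPM in E861A and 26.5, 25.7 and 24.1 CPM in wild type. The spread within each group was small beside the gap between them. Means were 13.2 ± 0.48 and 25.4 ± 1.25 CPM (SD, n = 3), a level 1.93-fold lower in E861A, and the log2 ratios within libraries of the same number were -1.06, -0.97 and -0.82. Its relative *Filip1l* had a log2 fold change of 0.03 ± 0.12. Of 8 tested genes that encode filamins or their partners, 0 were called by the quasi-likelihood test, the likelihood ratio test, DESeq2 or limma-voom, 2 had an unadjusted p under 0.05 and 4 were higher in E861A, with a median log2 fold change of 0.01.

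*Cyb5r4* (ENSMUSG00000032872; 86916849 to 86972609, plus strand, 18 exon blocks) lies 7.09 Mb beyond *Filip1* and had the largest log2 fold change of the 3 members that were higher in E861A. Its level was 46.8, 42.4 and 43.6 CPM in E861A and 28.5, 27.2 and 28 CPM in wild type. The means of 44.3 ± 2.28 and 27.9 ± 0.64 CPM (SD, n = 3) gave a log2 fold change of 0.67 ± 0.05, a level 1.59 times that of wild type. In its exons, 88.2% of 75-base windows occurred once in the NCBIM37 genome. The other reductases of the family were *Cyb5r1* at 0.01 ± 0.11, *Cyb5r3* at -0.10 ± 0.08 and *Cyb5rl* at 0.14 ± 0.15 on the log2 fold change scale. *Cyb5r2* held 12 to 24 counts per library and was not tested. Of 14 tested genes of cytochrome b5 metabolism, 0 were called by the quasi-likelihood test, the likelihood ratio test, DESeq2 or limma-voom and 0 had an unadjusted p under 0.05.

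*Cep162* (ENSMUSG00000056919, named 4922501C03Rik in the annotation; 87084408 to 87150371, minus strand, 27 exon blocks) lies 112 kb beyond *Cyb5r4*. Its level was 33.8, 30.6 and 32.8 CPM in E861A and 27.5, 26.0 and 24.7 CPM in wild type, so it was higher in E861A without overlap. Means were 32.4 ± 1.62 and 26.1 ± 1.41 CPM (SD, n = 3). The fitted log2 fold change was 0.31 ± 0.06, the smallest in size among the members. When each library was left out in turn, the value ran from 0.27 to 0.35. Of 27 tested genes of the primary cilium and its transition zone, 14 were higher in E861A, with a median log2 fold change of 0.02. None of them was called by the quasi-likelihood test, the likelihood ratio test, DESeq2 or limma-voom, and 5 had an unadjusted p under 0.05.

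*Trim43b* (ENSMUSG00000079162; 88979462 to 88987673, minus strand, 7 exon blocks) closed the interval and had the largest difference of all 13649 tested genes by fitted log2 fold change. It held 2, 0 and 2 counts in E861A and 85, 97 and 82 counts in wild type. A count of 0 in E861A replicate 2 allows up to 3 counts, or 0.0827 CPM. Over pooled libraries, 4 counts in E861A stood against 264 in wild type, a ratio of CPM 55.2-fold lower in E861A with a 95% exact interval of 21.3 to 204 that covers counting error only. The fitted log2 fold change of -5.67 ± 0.37 depends on the prior count added by the fit.

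The near-identical copies of *Trim43b* did not share its pattern in value. ENSMUSG00000067399, 88475729 to 88483945 on the plus strand, held 80, 82 and 76 counts in E861A and 106, 94 and 80 in wild type. Its log2 fold change was 0.03 ± 0.15 (adjusted p 0.971), and its pooled ratio of E861A to wild type was 1.02 (95% exact interval 0.851 to 1.21). ENSMUSG00000090693, 88734147 to 88743022 on the plus strand, held 52, 62 and 45 counts against 63, 68 and 53, a pooled ratio of 1.03 (0.83 to 1.28), and was under the filter. In the exons of *Trim43b*, 60.3% of 75-base windows (1083 of 1795) occurred once in the genome, against 65.2% and 73.9% for the copies. The paper took its counts from the gene count mode of STAR, and nothing here shows that shared reads were divided among the 3 genes. Reads were paired, so single windows do not show how often a pair matched 1 gene only. Which of the reads in wild type came from unique windows cannot be read from counts per gene. Of the rest of the listed *Trim43* relatives, *Rfpl4*, *Trim60* and *Trim75* were not tested.

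**Figure D1:**
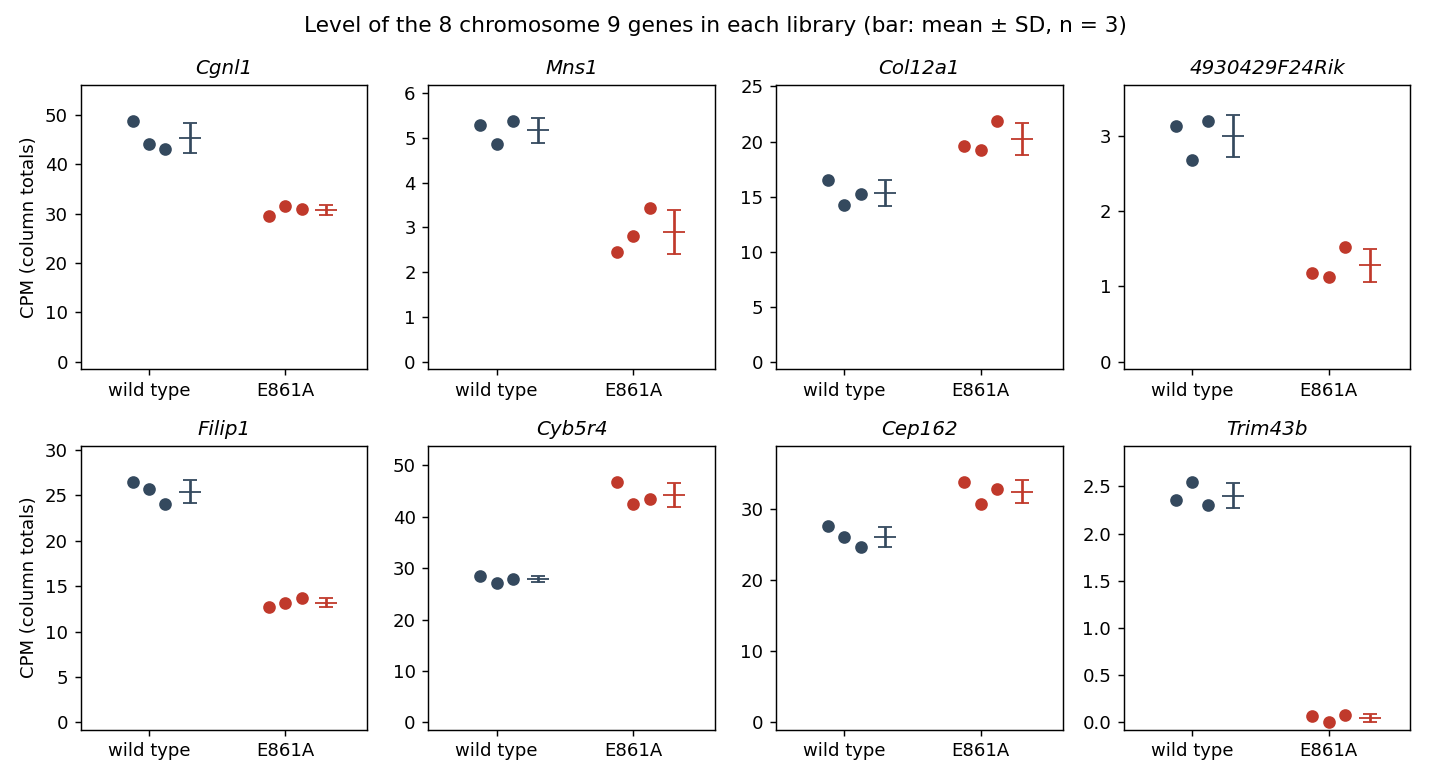
Level in CPM (column totals, linear axis that includes 0) of each of the 8 genes, with 1 point per library, and the mean ± SD of 3 libraries as a bar beside the points. In every panel the points of the groups are separate, with *Col12a1*, *Cyb5r4* and *Cep162* higher and the other 5 genes lower in E861A.

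**Figure D2:**
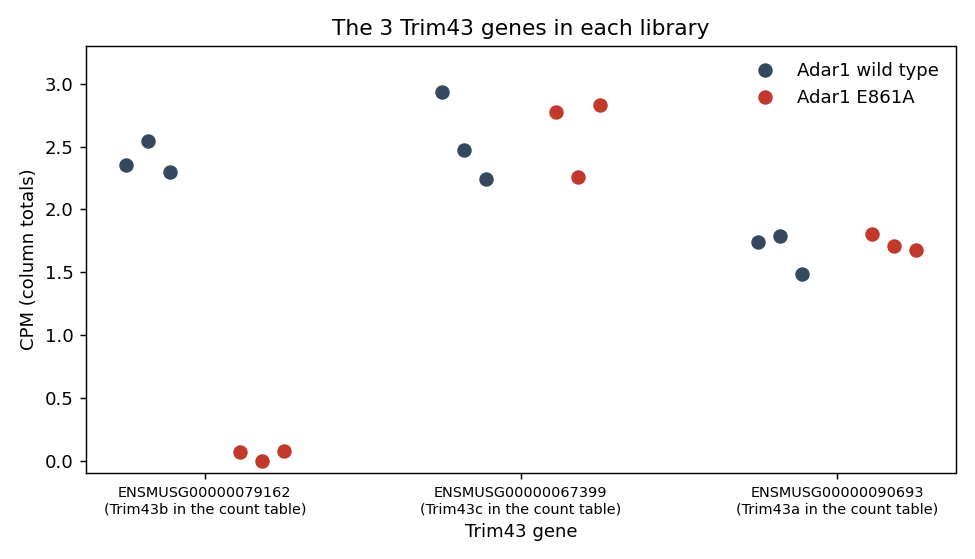
Level in CPM of *Trim43b* and of its near-identical copies, with 1 point per library. *Trim43b* lies at 0 to 0.0745 CPM in E861A and 2.30 to 2.55 CPM in wild type, while the points of the groups lie in overlapping ranges for both copies.

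Levels were compared between members per length, as RPKM, which divides the CPM by the annotated exon length in kilobases. In wild type, *Cgnl1* was highest at 5.78 ± 0.38 RPKM, followed by *Filip1* at 5.20 ± 0.26 and *Cyb5r4* at 4.11 ± 0.09 (SD, n = 3). *Mns1* at 2.87 ± 0.15 and *Cep162* at 2.85 ± 0.15 RPKM overlapped, as did *Trim43b* at 1.06 ± 0.06 and *Col12a1* at 1.01 ± 0.08 RPKM. *4930429F24Rik* lay between these pairs at 1.97 ± 0.18 RPKM. In E861A the order began with *Cyb5r4* at 6.53 ± 0.34 RPKM, then *Cgnl1* at 3.92 ± 0.13, *Cep162* at 3.54 ± 0.18 and *Filip1* at 2.70 ± 0.10 RPKM. *Mns1* at 1.61 ± 0.27 and *Col12a1* at 1.33 ± 0.09 RPKM overlapped there, and *4930429F24Rik* at 0.84 ± 0.14 RPKM lay above *Trim43b* at 0.021 ± 0.018 RPKM. The length used covers all exons annotated for a gene, so RPKM reads low for a gene of which the brain uses a shorter isoform.

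Members lay in 3 groups along the chromosome. *Cgnl1* and *Mns1* were 7.14 Mb from *Col12a1*, *4930429F24Rik* and *Filip1*, which in turn were 7.09 Mb from *Cyb5r4*, *Cep162* and, 1.83 Mb further, *Trim43b*. In the first group both genes were lower in E861A. The other groups each held members of both directions. Between members lay 2, 38, 2, 0, 22, 1 and 10 other tested genes, in order along the chromosome. No exon base of a member was shared with an exon of another annotated gene.

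The other genes of the interval give a measurement that the choice of members did not fix gene by gene. Genes with clear group differences may have been taken as members, however. The span from the first base of *Cgnl1* to the last base of *Trim43b* measured 17.5 Mb (71474316 to 88987673) and held 196 annotated genes, of which 165 had a count and 83 were tested. Of the 75 tested genes that are not members, 0 were called by the quasi-likelihood test, 2 by the likelihood ratio test, 1 by DESeq2 and 0 by limma-voom, and 14 (18.7%) had an unadjusted p under 0.05, against 9.01% of all tested genes. Their groups did not overlap in 19 of 75 (25.3%), against the 13.8% over all tested genes given above. The directions were even, with 38 higher and 37 lower in E861A and a median log2 fold change of 0.00. Their median absolute log2 fold change was 0.081, against 0.059 over all tested genes. Interval genes under the filter are not in these counts, and some had larger values at 8 to 44 counts per library. In the quasi-likelihood fit with filterByExpr, *A330041J22Rik* was at -1.28 ± 0.28 (adjusted p 0.0505) and *Impg1* at 1.13 ± 0.26 (adjusted p 0.0708). The other interval genes that filterByExpr added had smaller values, in both directions. Without a filter, 9 of 157 interval genes that are not members were called by the quasi-likelihood test, with a smallest adjusted p of 4.22e-07. On the rest of chromosome 9, 0 of 700 tested genes were called by the quasi-likelihood test, 3 by the likelihood ratio test, 1 by DESeq2, 0 by limma-voom and 4 with the replicate number as a block, and 56 had an unadjusted p under 0.05.

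The 6 libraries share replicate numbers across groups, but whether these numbers pair the animals was not given in the sources used here. With the replicate number as a block 6 of the 75 genes were called, against 1.16% of all tested genes in that fit. These were *Tmod3* (log2 fold change 0.28 ± 0.06, blocked adjusted p 0.0308), *Me1* (-0.26 ± 0.04, 0.0106), *Elovl5* (-0.19 ± 0.04, 0.0341), *Slc17a5* (-0.28 ± 0.06, 0.0457), *Myo6* (0.16 ± 0.03, 0.0416) and *Phip* (0.16 ± 0.03, 0.0457). The 3 higher and 3 lower genes had smaller log2 fold changes in size than any member. *Tmod3*, which encodes a cap of actin filaments, was at 27.2, 25.1 and 26.8 CPM in E861A and 21.0, 22.1 and 21.8 CPM in wild type. *Me1*, the cytosolic malic enzyme, was at 39.2, 42.6 and 41.4 CPM against 47.0, 50.5 and 49.9 CPM. In the fit without the block, *Tmod3* had the smallest adjusted p of the 75 genes (0.0583). Its log2 fold change of 0.28 compares with 0.31 for *Cep162* and 0.40 for *Col12a1*, the members with the smallest values.

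The nearest tested gene on each side of each member was compared with it. Apart from members that neighbour each other, there were 13 such genes. None was called by the quasi-likelihood test, the likelihood ratio test, DESeq2, limma-voom or the fit with the block, and 2 had an unadjusted p under 0.05. Members were chosen by their group differences in these libraries, so the absence of called neighbours may follow largely from the choice. Their log2 fold changes ran from -0.60 to 0.17, with a median absolute value of 0.12. Beside *Cgnl1*, *Polr2m* was at -0.04 ± 0.05 and *Tcf12* at 0.12 ± 0.05. Beside *Mns1*, *Zfp280d* was at 0.08 ± 0.05 and *Rfx7* at 0.02 ± 0.05. The gene before *Col12a1*, *Cd109*, had the lowest value, -0.60 ± 0.17 (adjusted p 0.253), opposite in sign to *Col12a1*, at a mean of 2.36 CPM in E861A and 3.63 CPM in wild type. *Cox7a2*, on its other side, was at 0.03 ± 0.05.

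Near *Cyb5r4* and *Cep162* the neighbours had values of the other sign. *Ripply2*, whose annotated end lies 2.10 kb before the start of *Cyb5r4*, was at -0.29 ± 0.14 (adjusted p 0.566), and *Mrap2*, which lies between *Cyb5r4* and *Cep162*, was at -0.18 ± 0.12 (adjusted p 0.69). *Tbx18* followed at -0.12 ± 0.15. *Senp6*, beyond *Filip1*, was at 0.08 ± 0.05, and the genes nearest to *Trim43b* were *9330159M07Rik* at -0.32 ± 0.18 and *Mthfs* at 0.17 ± 0.12. Each of these values missed the threshold.

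**Figure D3:**
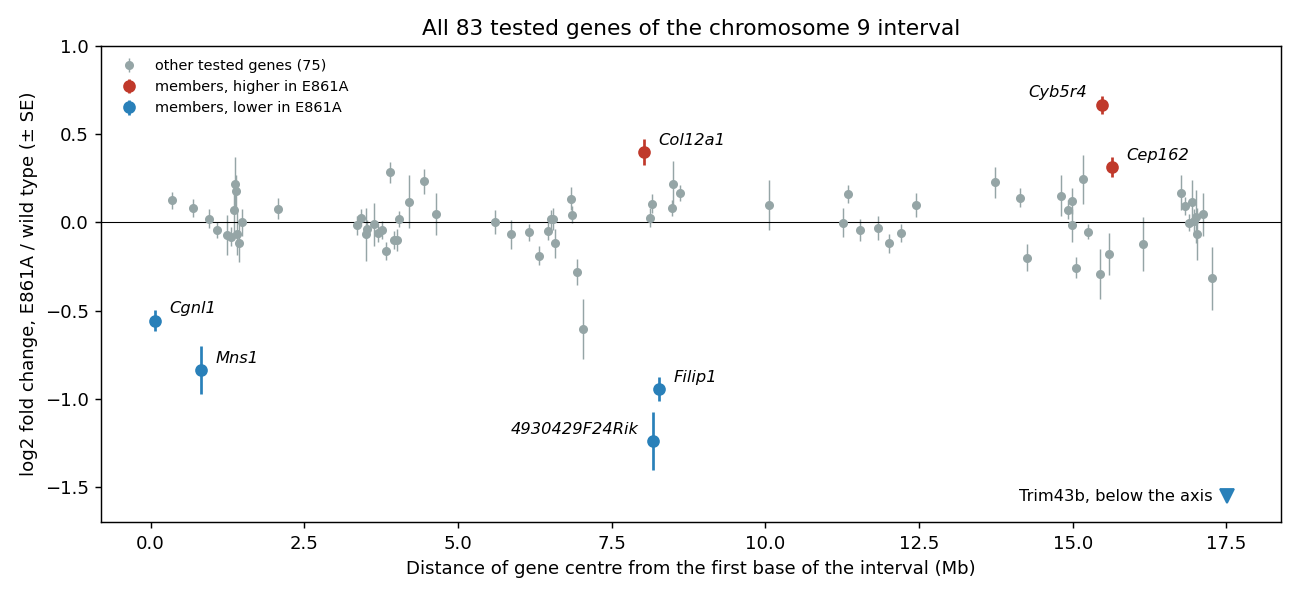
Log2 fold change ± SE of all 83 tested genes of the interval against the distance of the gene's centre from the first base of *Cgnl1*, in Mb, with members in colour and the 75 other genes in grey. The other tested genes lie between -0.60 and 0.28 on both sides of 0, and *Trim43b*, at -5.67, is drawn as a triangle because it falls below the axis. Genes under the filter are not shown.

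**Figure D4:**
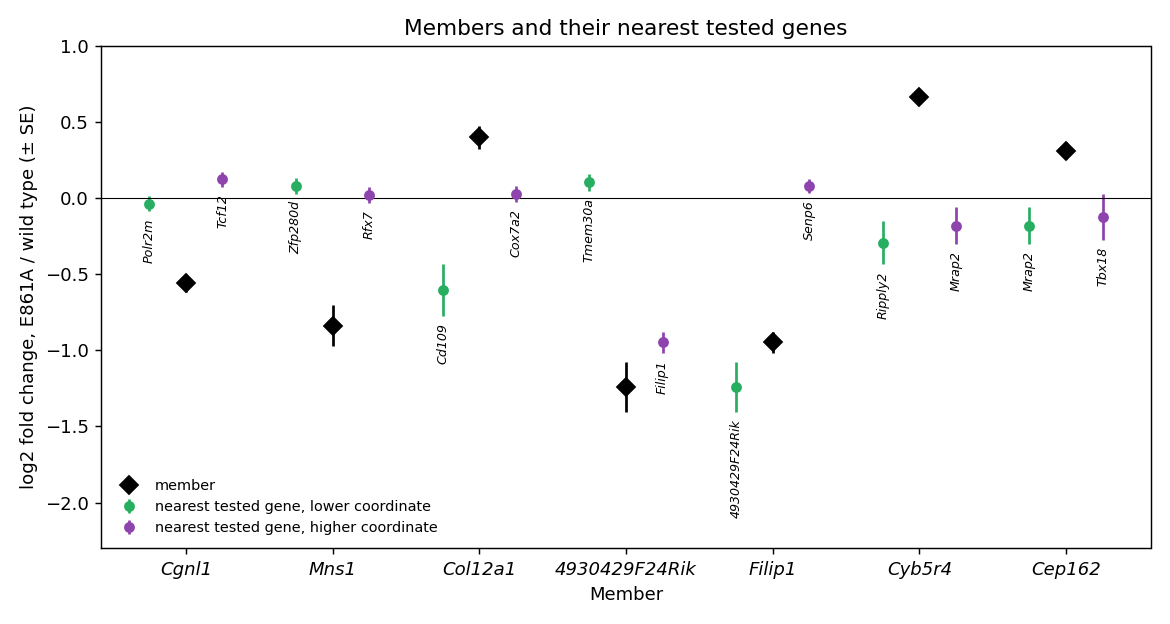
Log2 fold change ± SE of the members other than *Trim43b* (diamonds) and of the nearest tested gene at lower and at higher coordinates (circles). *4930429F24Rik* and *Filip1* are neighbours of each other, and the other neighbours lie between -0.60 and 0.12.

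The members were compared with each other over libraries within their groups. After the group means were removed, the log2 CPM of 22 of 28 pairs of members correlated positively over the 6 libraries, with a median r of 0.27 and a range of -0.42 to 0.89. The median was 0.33 over the 15 pairs of opposite direction and 0.23 over the 13 pairs of the same direction. Without *Trim43b*, which held 2, 0 and 2 counts in E861A, 17 of 21 pairs correlated positively, with a median r of 0.33. The points of each pair share library and depth, and the share of positive pairs over all tested genes is not given here.

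A profile made of the mean standardised log2 CPM of the 8 members, with the sign turned for those lower in E861A, was 0.80 to 1.03 in E861A and -0.92 to -0.84 in wild type. The tested genes most like it over 6 libraries by absolute Pearson r were *Gm43302* (r 0.995), the interferon-induced *Ifit1* (0.992), *Gm10557* (-0.992), *Gm11868* (-0.991) and *Ppfibp2* (0.990), none of them on chromosome 9. In all, 324 genes had an absolute r over 0.9. Since the libraries fall into both groups, any gene with a steady group difference follows this profile, also a small one: *Ppfibp2* was at 11.6 ± 0.12 CPM in E861A and 10.9 ± 0.05 CPM in wild type (SD, n = 3), with an adjusted p of 0.769. By size, *Ifit1* had a log2 fold change of 2.00 ± 0.11 and *Gm11868* of -4.26 ± 0.20, and only *Trim43b* among the members had a larger one than either.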

How the data were processed

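Whole brain RNA was ribosome-depleted, prepared with a stranded kit and sequenced as 75 bp paired reads. The series text names foetal brain and the sample labels adult brain; the labels were followed. The authors trimmed reads with Trimmomatic 0.36, aligned them to mm9 with STAR 2.5.2a and deposited a table of raw counts, in which each library has a column. The strand column used for counting was not given in the sources used here. Every table column was assigned to a library. The authors' deposited CPM values and their own comparison (log2 fold change, average expression and false discovery rate) were not used.

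CPM were computed from column totals. The filter kept genes that reached a CPM of 2 in all 3 libraries of one group, and these were fitted with edgeR 4.0.16 in R 4.3.3 (TMM, quasi-likelihood test, no covariates), with Benjamini-Hochberg adjustment over all 13649 genes, and 0.05 as the threshold. RPKM used annotated exon bases, and coordinates and sequences came from NCBIM37 with GENCODE vM1, in which all 37310 identifiers were found. Log2 CPM used a pseudocount of 0.5. The script was tested on simulated data. Alternatives were the likelihood ratio test, DESeq2 1.42.0, limma-voom (limma 3.58.1), other scalings and filters, the replicate block, wider and narrower interval edges and the omission of each library.

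The members and lists were chosen with earlier results of these data known, and 8 listed symbols had no match. Genes named were the members, their nearest tested neighbours, called genes of the interval and lists, listed relatives of members, the 5 tested genes most like the members over the 6 libraries, and *Adar* and *Ifih1*. Single markers and list genes that were not called (*Col1a1*, *Col5a1*, *Cldn5*, *Esam*, *Ttr*, *Enpp2*, *Slc1a2*, *Ptgds*, *Aldh1a2* and *Lepr*) were named after their values were seen. The same holds for the genes called only with the block, for *A330041J22Rik* and *Impg1*, and for *Rfpl4*, *Trim60* and *Trim75*. Deviations from group means in libraries of the same number correlated with r of 0.225, 0.336 and 0.116. Libraries of different numbers were not set beside these values, so they do not show that the numbers pair the libraries. The main fit did not pair them, and the block was used as an alternative only. Where the numbers come from was not given in the sources used here. The 6 libraries came from independent animals. Intervals on counts cover counting error only. Libraries held 26853488 to 38076753 counts, and precision was lowest for *Trim43b*, *4930429F24Rik* and *Mns1*, which had the fewest.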

Additional observations from a re-analysis of the deposited data

How the results depend on the processing

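Over 15 alternatives, 118 log2 fold changes of the members were computed. Of these, 0 changed sign and 114 moved by less than the SD between replicates. The members were chosen because their groups separate in these same libraries, so a kept sign follows from the choice and is no support for it. The 4 that moved were of *Trim43b*, whose fitted value was -5.78 by DESeq2 and -6.13 to -5.0 when a library was left out; 2 values could not be computed, since *4930429F24Rik* and *Trim43b* do not reach a CPM of 2 in every library. When a library was left out, *Mns1* ran from -0.97 to -0.73, *Col12a1* from 0.34 to 0.45 and *Cep162* from 0.27 to 0.35. The 69 called genes over all tested genes became 139 by the likelihood ratio test, 110 with filterByExpr, 376 without a filter, 42 where every library had to reach a CPM of 2, 158 with the replicate block and 42 to 113 when a library was left out (113 without E861A replicate 2, 108 without wild-type replicate 2 and 42 without E861A replicate 3). The 0 called interval genes that are not members became 2 by the likelihood ratio test, 1 by DESeq2, 1 with filterByExpr, 9 without a filter, 6 with the replicate block, and 0 to 3 when a library was left out (3 without E861A replicate 2, 1 without wild-type replicate 2), and stayed at 0 with other scalings, with limma-voom and with other interval edges. The 2 called genes of the pathway lists became 6 without a filter, 3 by the likelihood ratio test, 3 with filterByExpr and 0 to 2 when a library was left out. The filters change how many genes are tested; for the other settings the cause was not tested. The replicate block left the count of the lists at 2. Depth limits *Trim43b* most, with 4 counts over the E861A libraries.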
